A study of Mus musculus with 8 samples.

Results

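Diclofenac, which blocks the synthesis of all prostanoids, was compared with an antagonist of EP4, one of the receptors for prostaglandin E2 (PGE2), in mouse fibroblasts undergoing cardiac reprogramming. The comparison rested on 2 of the 8 arrays of the series, 1 diclofenac array and 1 EP4 antagonist array from the same set of cells, chosen by their sample titles. All 8 cultures were postnatal tail-tip fibroblasts (TTFs) carrying retroviral Gata4, Hand2, Mef2c and Tbx5 (GHMT), transcription factors that convert a portion of fibroblasts into cardiomyocyte-like cells. TTF set 1 held GHMT alone, GHMT with diclofenac, GHMT with the EP4 antagonist, and GHMT with diclofenac plus PGE2. TTF set 2 held GHMT alone and GHMT with the EP4 antagonist, a TGFb inhibitor or a Wnt inhibitor. Each compound was given at the time of transduction, and DMSO is the other agent listed among the additions. The sources used here do not give the identity of the EP4 antagonist, the doses or the harvest time, and cells without GHMT were not analysed here. With 1 array per arm the difference had no replicate check, and no p-value comes from these 2 arrays alone.

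Cyclooxygenases turn arachidonic acid into prostaglandin H2, from which separate synthases make PGE2, prostacyclin, thromboxane and the other prostanoids. PGE2 acts on a family of receptors, of which EP4 and EP2 couple to Gs and raise cAMP, whereas EP1 and EP3 use other G proteins. A cyclooxygenase inhibitor therefore lowers every prostanoid together, while an EP4 antagonist leaves synthesis and the other receptors in place. The comparison asks what the broader block does beyond the loss of EP4 signalling.

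The arrays covered 22206 transcript clusters, each the probe set of 1 transcript unit, of which 19572 carried a gene symbol. Values are log2 expression levels, so a difference of 1 is 2-fold, and a difference here is diclofenac minus EP4 antagonist unless stated otherwise. A cluster at or under the 95th percentile of its array's background probe sets (5.99 for diclofenac, 5.98 for the EP4 antagonist) is called at background. Where the lower arm lay there, the fold is a lower bound against that level and is written "at least". Of the 12 fibroblast markers, 11 were matched and 10 were above background in both arrays, with Vim highest and Fap at background (5.40 and 4.94). Mef2c (19.26 and 19.16), Tbx5 (14.94 and 14.87) and Hand2 (12.39 and 12.18) were at similar levels with diclofenac and the EP4 antagonist. The Gata4 cluster was at background in both (4.24 and 4.43), and whether its probes cover the transduced gene is not known here. The RNA came from mixed cultures, so a lower value cannot be told apart between fewer cells of a type and less RNA per cell. All 18 matched macrophage and leukocyte markers and all 12 endothelial markers were at background in both arrays.

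Diclofenac and the EP4 antagonist gave the most similar profiles of the 6 pairs of arrays in set 1. At 2-fold or more they differed in 132 transcript clusters (0.594% of those measured), 82 higher with diclofenac (0.369%) and 50 lower (0.225%). The other 5 pairs differed in 355 to 539 clusters, and each treated array differed from GHMT alone in 355 (EP4 antagonist), 402 (diclofenac) or 403 (diclofenac plus PGE2). The standard deviation of the difference over all clusters was 0.31 for diclofenac against the EP4 antagonist and 0.37 to 0.40 for the other pairs. The median difference over all clusters was 0.00, with quartiles at -0.18 and 0.19.

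**Figure D1:**
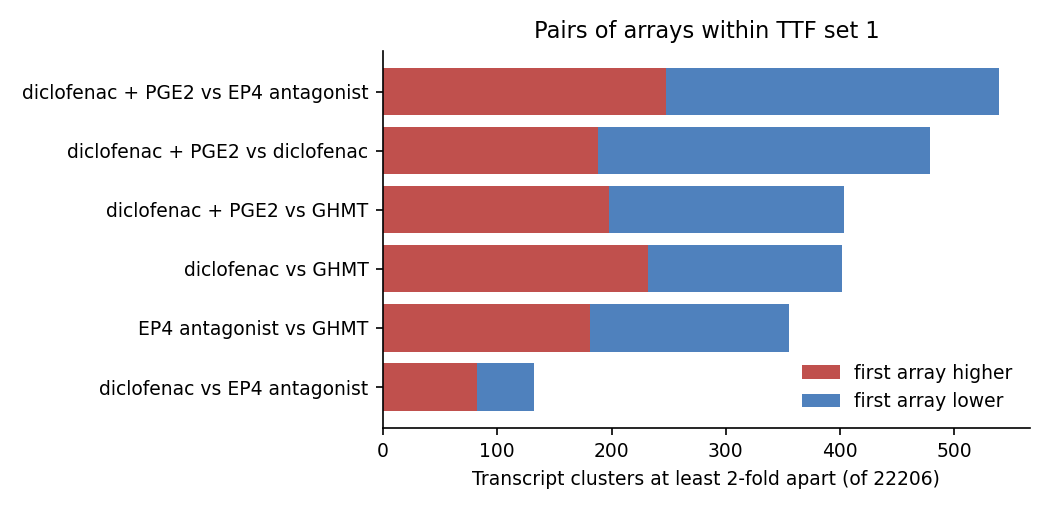
Number of transcript clusters at least 2-fold apart (x axis, of 22206) in each pair of arrays of TTF set 1 (y axis), split by direction; each bar compares 1 array with 1 array. Diclofenac against the EP4 antagonist has the shortest bar, 132 clusters, and diclofenac plus PGE2 against the EP4 antagonist the longest, 539.

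This count lay below the spread between sets for a single-array contrast. The EP4 antagonist contrasts of sets 1 and 2, subtracted and divided by the square root of 2, reached 1 in size in 338 clusters (1.52%); that value also holds any true difference of the response between sets. In a limma fit over all 8 arrays with the TTF set as a block and 1 residual degree of freedom, 0 clusters passed an adjusted p of 0.05 for diclofenac minus EP4 antagonist (0.0%), and 527 had an unadjusted p under 0.05. The smallest adjusted p was 0.999, a value that many clusters shared, and Xaf1 had the smallest unadjusted p. The labels do not say that the sets are separate experiments, so that fit measures only the spread between these samples. Everything below therefore describes these arrays. As measured, the clusters nearest the 2-fold threshold were Ncoa3, Edil3 and Rbm25 (1.00) and Adam4 (2.00-fold lower) inside it, and Chchd6 (-0.97), Cxxc1 (0.96), Rbm46 (0.96) and Sorcs2 (-0.95) outside it. The lower arm of Edil3, Adam4, Chchd6 and Rbm46 was at background, so those values are not exact.

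Of the 132 clusters, 60 were at background in both arrays (24 higher and 36 lower with diclofenac) and are not described further. The remaining 72 were uneven in direction, 58 higher and 14 lower with diclofenac. These are 0.581% and 0.14% of the 9984 clusters with an arm above background. Of the 72, 56 had a gene symbol, 44 higher and 12 lower. Among the 44 named genes higher with diclofenac, 9 were on the interferon response list and 13 more are known interferon-inducible genes, a group marked after their values were seen. The remaining 22 were neither, and none of the 12 named genes lower with diclofenac was on the interferon list.

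Interferon response genes were the list with the most members 2-fold apart. These genes are switched on through the interferon receptors and transcription factors such as Irf9, which binds the interferon-stimulated response element (ISRE) in their promoters. The core of that element is GAAA followed by any 2 bases and GAAA again, read on either strand and printed in capitals. Promoters chosen because they carry it are shown for Ifit1, Stat2 and Bst2 of the list. That of Irgm2 is shown too, a gene outside the list that was marked as interferon-inducible after the values were seen. Each promoter is the stretch of 250 bases directly before the RefSeq transcript start in GRCm38.p6, 5′ to 3′ on the gene's strand, and lies outside the transcript itself. Ifit1 lies at chr19:34640639-34640888 (plus strand), Irgm2 at chr11:58214727-58214976 (plus), Stat2 at chr10:128270248-128270497 (plus) and Bst2 at chr8:71537473-71537722 (minus).
Ifit1: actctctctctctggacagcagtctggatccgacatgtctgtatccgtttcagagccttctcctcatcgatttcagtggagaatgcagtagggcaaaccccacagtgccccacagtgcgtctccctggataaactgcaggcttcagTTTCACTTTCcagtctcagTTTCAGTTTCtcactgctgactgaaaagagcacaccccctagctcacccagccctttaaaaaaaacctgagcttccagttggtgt
Irgm2: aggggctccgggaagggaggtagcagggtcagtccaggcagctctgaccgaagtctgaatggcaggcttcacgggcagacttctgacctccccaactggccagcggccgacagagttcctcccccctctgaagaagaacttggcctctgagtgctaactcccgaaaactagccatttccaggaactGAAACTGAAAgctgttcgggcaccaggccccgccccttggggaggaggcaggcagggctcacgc
Stat2: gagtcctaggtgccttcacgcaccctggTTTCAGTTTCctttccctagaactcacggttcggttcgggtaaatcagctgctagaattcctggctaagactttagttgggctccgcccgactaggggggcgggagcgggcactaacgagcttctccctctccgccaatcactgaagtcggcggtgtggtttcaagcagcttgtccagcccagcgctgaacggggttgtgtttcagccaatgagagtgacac
Bst2: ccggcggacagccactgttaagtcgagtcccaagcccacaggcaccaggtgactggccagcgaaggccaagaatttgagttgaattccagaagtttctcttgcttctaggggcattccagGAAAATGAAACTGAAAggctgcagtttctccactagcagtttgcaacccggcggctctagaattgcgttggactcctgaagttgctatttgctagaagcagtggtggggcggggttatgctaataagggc
The Ifit1 window holds 2 copies, beginning at -104 and -85 from the start. Irgm2 has 1 copy at -64 and Stat2 has 1 at -222, while Bst2 has 2 overlapping copies at -130 and -124.

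The same search was run on all RefSeq windows of 300 bases, from 250 before to 50 after the start. Of the 44 named genes higher with diclofenac, 35 had such a window and 11 of these (31.4%) held the ISRE core, against 618 of 15691 genes on the array (3.94%). Over the whole interferon response list, whatever the difference between the arms, 12 of 23 genes with a window (52.2%) held it. The share among the 35 is therefore no finding separate from the interferon genes they include. The 11 were Ifit1, Irgm2, Ifi211, Stat2, Ifi207, Bst2, Irgm1, Ifit3b, Ifitm3, Ifit3 and Apol9a, all of them interferon-inducible. None of the 9 genes lower with diclofenac that had a window held it. The cAMP response element TGACGTCA, the site of CREB, was in 0 of the 35 windows of the higher genes and in 2.63% of all on the array. Its partial site TGACG was in 25.7% of the 35 and 27.1% of all, and every full element also counts as a partial one. A match is a description of the letters in the window and not of binding; the ISRE search was added after the interferon genes had been seen.

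Ifit1, an interferon-induced antiviral protein that binds foreign RNA, had its EP4 antagonist value at background. It was at 7.19 with diclofenac and 4.60 with the EP4 antagonist, a measured difference of 2.59 and at least 2.31-fold. GHMT alone was at 6.08 and diclofenac plus PGE2 at 7.00. The EP4 antagonist array was thus the lowest of set 1 and both diclofenac arrays the highest, with GHMT between them. In set 2, GHMT (5.15) and the EP4 antagonist (5.26) were both at background.

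Transcription factors of the interferon pathway were also lowest with the EP4 antagonist in set 1. Stat2 was at 9.32 with diclofenac, 7.88 with the EP4 antagonist, 8.54 with GHMT alone and 9.44 with diclofenac plus PGE2, a difference of 1.44 between the arms. Irf9, which joins Stat2 on the ISRE, was at 7.63 with diclofenac, 5.89 with the EP4 antagonist, 7.02 with GHMT and 6.95 with diclofenac plus PGE2, at least 3.14-fold apart. Irf7, an interferon-induced factor that amplifies interferon production, was at 6.29, 4.53, 5.16 and 5.82 in the same order, at least 1.24-fold apart. The array with added PGE2 was near diclofenac alone for Stat2, and near GHMT for Irf9. In set 2 Stat2 was at 8.62 with both GHMT and the EP4 antagonist. Irf9 was at 5.96 with GHMT and 5.59 (background) with the antagonist there, and Irf7 was at background in both (5.52 and 4.80). Irf1 (0.13), Irf2 (-0.01) and Irf3 (-0.28) differed little between the arms.

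Feedback and effector genes followed. Usp18, a protease that removes Isg15 and damps the receptor, was at 6.96 with diclofenac and 5.06 with the EP4 antagonist, at least 1.97-fold apart, with GHMT at 6.34 and diclofenac plus PGE2 at 6.83. Bst2, or tetherin, which holds budding viruses at the cell surface, was at 7.07 with diclofenac, 5.74 with the EP4 antagonist, 6.04 with GHMT and 7.03 with diclofenac plus PGE2, at least 2.13-fold apart with the EP4 antagonist at background. Here both diclofenac arrays stood apart and the EP4 antagonist lay near GHMT. Oasl2, an oligoadenylate synthetase-like protein, was at 6.99 with diclofenac, 6.91 with GHMT, 6.80 with diclofenac plus PGE2 and 5.07 with the EP4 antagonist. Its EP4 antagonist array alone stood apart, at least 2.01-fold lower than diclofenac. Ifi27 was at 10.57 with diclofenac, 8.97 with the EP4 antagonist, 10.42 with GHMT and 11.27 with diclofenac plus PGE2, a difference of 1.60, again with the EP4 antagonist array apart.

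Over the whole list, 32 of 34 interferon response genes were matched and 10 were at least 2-fold higher with diclofenac (31.2%, against 0.369% of all clusters), with 0 lower. One of the 10, Rtp4 (1.48), was at background in both arrays, and in 6 of the other 9 the EP4 antagonist value was at background, with bounds of at least 1.24-fold (Irf7) to at least 3.14-fold (Irf9). The median difference was 0.47 over the 32 and 1.05 over the 17 with an arm above background (0.88 with values at background raised to that level), against 0.00 over all clusters and 0.03 over clusters with an arm above background. The 17 ran from 0.13 (Irf1) to 2.59 (Ifit1) and were all positive. Of the 15 members at background in both arrays, Mx1 (-0.22), Rsad2 (-0.37) and Oas1a (-0.32) were among the 6 negative values and Isg15 (0.89) among the positive ones. The background filter admits a gene through its higher arm, so the values over the 17 are a description only, and several classical interferon targets were at background in both arrays.

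**Figure D2:**
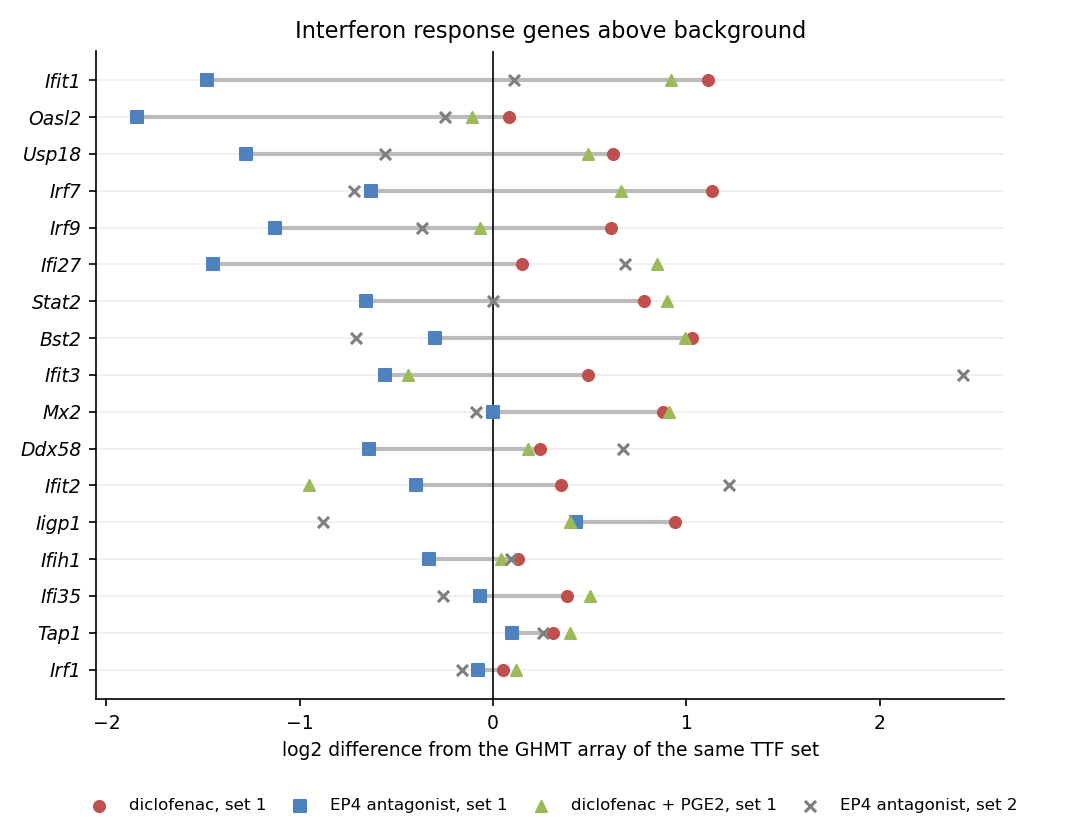
Log2 difference from the GHMT array of the same TTF set (x axis) for the 17 interferon response genes with an arm above background (y axis, ordered by diclofenac minus EP4 antagonist); each point is 1 array and grey bars join the 2 arms of set 1. Diclofenac lies to the right of the EP4 antagonist in all 17, from 0.13 for Irf1 to 2.59 for Ifit1. The EP4 antagonist array of set 2 does not share the low position in several genes, among them Ifi27, Ifit3, Stat2 and Ifit1 (at background in set 2).

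In the median, the arms lay on opposite sides of GHMT. Over the 17 genes the median against GHMT of set 1 was 0.49 for diclofenac, 0.40 for diclofenac plus PGE2 and -0.56 for the EP4 antagonist; these 3 values share the GHMT array. The EP4 antagonist of set 2 had a median of -0.09 against its own GHMT array. Ifit3 was at 6.93 with the EP4 antagonist against 7.49 with GHMT in set 1, and at 8.26 against 5.83 (background) in set 2. The EP4 antagonist array was thus the lower one for Ifit3 in set 1 and the higher one in set 2. When the EP4 antagonist contrast of set 2 took the place of that of set 1, the list's median over all 32 members was 0.21, and Ifi27 changed sign, from 1.60 to -0.53. In that setting Xaf1, Lgals3bp and Irf7 had differences of 1.71, 1.62 and 1.85. The differences of Usp18 (1.18), Ifit1 (1.00), Irf9 (0.98), Irgm2 (0.50), Samd9l (0.45) and Oasl2 (0.33) were smaller than within set 1. Irf7, Usp18, Ifit1, Irgm2 and Oasl2 were at background in both the GHMT and EP4 antagonist arrays of set 2, so their values are not exact. The summed level of the list was highest in the TGFb and Wnt inhibitor arrays (14.82 and 15.31, against 11.82 to 12.79 in the other 6).

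The 13 further interferon-inducible genes were all picked from those higher with diclofenac, so their shared direction is no finding. Xaf1, an interferon-induced partner of XIAP, was at 8.31 with diclofenac, 6.14 with the EP4 antagonist, 7.01 with GHMT and 8.17 with diclofenac plus PGE2, a 4.50-fold difference. In the pooled limma fit its difference was 2.06 ± 0.29 (SE, adjusted p = 0.999). Samd9l, an antiviral restriction factor, was at 9.90, 7.87, 9.17 and 9.84 in the same order, a 4.08-fold difference. In both genes, within set 1, diclofenac with or without PGE2 was high, GHMT was intermediate and the EP4 antagonist was low. In set 2 the EP4 antagonist and GHMT were at 8.03 and 8.44 for Xaf1, and at 9.47 and 9.19 for Samd9l. Lgals3bp, a secreted galectin-binding protein, was at 11.56 with diclofenac, 9.96 with the EP4 antagonist, 10.75 with GHMT and 11.66 with diclofenac plus PGE2. In set 2 it was at 10.40 with the EP4 antagonist and 11.21 with GHMT, so the antagonist array was the lower one in both sets (-0.79 and -0.81). Irgm2, an immunity-related GTPase, was at 6.99 with diclofenac, 5.34 with the EP4 antagonist, 6.14 with GHMT and 5.96 with diclofenac plus PGE2, at least 2.01-fold apart. Ifit3 and Ifit3b, Irgm1 and Irgm2, and Ifi204, Ifi207 and Ifi211 are close paralogs, and probes can share signal between them.

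Ligands, receptors and upstream sensors lay closer together in the 2 arrays. On lists added after the interferon genes were seen, 0 of 15 interferon ligands and receptors (median 0.11) were 2-fold apart, against 0.594% of all clusters. Of these 15, 9 were at background in both arrays, Ifnb1 among them (4.06 and 3.92). The receptor chains Ifnar1 (10.61 and 10.22) and Ifnar2 (11.67 and 11.41) were well expressed and differed by 0.39 and 0.26. Among 25 sensing and signalling genes 4 were 2-fold higher with diclofenac as measured (against 0.369% of all clusters; median 0.23). These were Stat2, Irf9, Usp18 and Irf7, the last 3 with the EP4 antagonist at background. All 4 were already counted on the interferon response list, so they are no further finding. Cgas, the sensor of cytosolic DNA, was at background with diclofenac (5.59 against 6.10, at least 1.08-fold), and Tlr3, a sensor of double-stranded RNA, was higher (0.88). Of 13 genes of MHC class I presentation, 0 were 2-fold apart (median 0.21), with B2m at 0.57 and Tapbp at 0.78. As given above, the macrophage and leukocyte markers were at background in both arrays.

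The heart muscle genes were largely level between the compounds, with Myh6 as the exception. Myh6, the alpha-myosin heavy chain of the working heart muscle, was at 10.22 with diclofenac, 8.57 with the EP4 antagonist, 6.89 with GHMT alone and 5.99 with diclofenac plus PGE2. Both compounds thus stood above GHMT, and diclofenac stood 3.14-fold above the EP4 antagonist. In set 2 the EP4 antagonist was at 7.25 and GHMT at 4.19, the latter at background, so that contrast has only a lower bound. With that contrast in place of the one of set 1, the measured Myh6 difference was 0.27 and not 1.65. The value of 0.27 is not exact, but the difference seen in set 1 rests on its single EP4 antagonist array.

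Of 36 sarcomere genes 2 were 2-fold higher with diclofenac, against 0.369% of all clusters, and 0 were lower. These 2 were Myh6, and Myh7 with both arms at background, and the list's median was 0.02. Tnnt2, cardiac troponin T, was at 18.07 in both arms, against 17.50 with GHMT and 17.96 with diclofenac plus PGE2. Actc1, cardiac alpha-actin, was at 14.37 with diclofenac and 14.36 with the EP4 antagonist, against 12.72 with GHMT and 11.67 with diclofenac plus PGE2. These genes were at the same level in both arms of set 1; in set 2 Actc1 was at 14.39 with the EP4 antagonist and 11.64 with GHMT. The histone methyltransferase Smyd1 (0.09), the atrial light chain Myl7 (0.29) and the light chain Myl1 (0.38) differed by under 0.5. Ttn, the giant spring protein, was at 10.52 with diclofenac, 9.71 with the EP4 antagonist and 8.52 with GHMT, a difference of 0.81. Xirp1 was at 6.47 with diclofenac and at background with the EP4 antagonist (5.63). Csrp3, a Z-disc protein, differed by -0.50, and by 1.89 with the EP4 antagonist contrast of set 2 in place of that of set 1.

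Calcium handling genes and cardiac hormones lay within 2-fold. Ryr2, the calcium release channel, was at 11.84 with diclofenac, 11.13 with the EP4 antagonist and 10.58 with GHMT, a difference of 0.71, and Slc8a1, the sodium-calcium exchanger, differed by -0.60. Nppa, the atrial natriuretic peptide, was at 14.08, 13.41 and 12.26 in the same order, a difference of 0.67. Of 26 calcium and channel genes and 23 cardiac transcription factor and hormone genes 0 were 2-fold apart, with medians of 0.02 and 0.10. Over all clusters 0.594% were 2-fold apart. Rnf207, a gene with a role in cardiac repolarisation that was named after its values were seen, was at 6.49 with diclofenac and 5.31 with the EP4 antagonist, at least 1.42-fold apart with the latter at background, and at 4.82 with GHMT. Skeletal and smooth muscle lists had 0 members 2-fold apart (medians 0.06 and -0.14). Myh8, a perinatal skeletal myosin, differed by 0.72, and Myh11, the smooth muscle myosin, by -0.89.

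**Figure D3:**
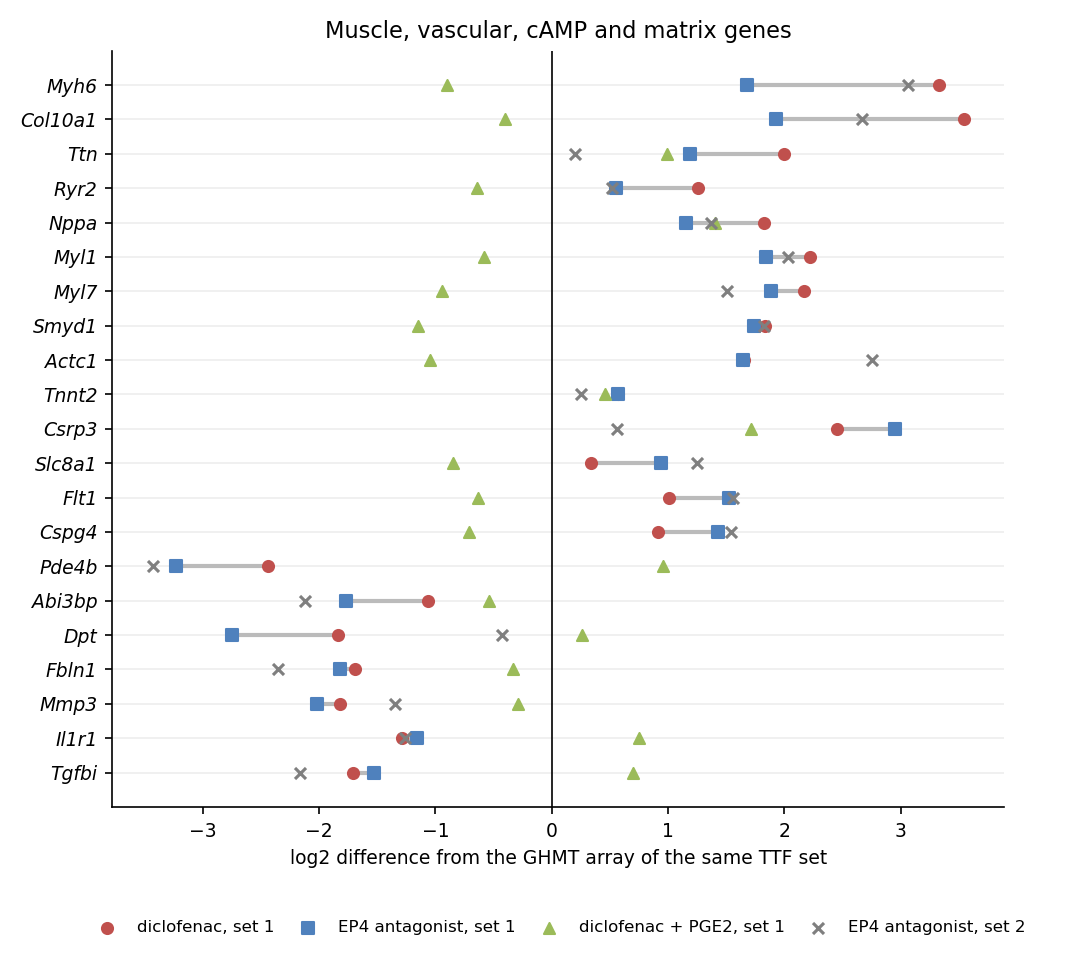
Log2 difference from the GHMT array of the same TTF set (x axis) for 21 muscle, vascular, cAMP and matrix genes (y axis); each point is 1 array and grey bars join the 2 arms of set 1. The arms coincide for Actc1 (0.01) and Tnnt2 (0.00), where the symbols overlap, and lie farthest apart for Myh6 (1.65) and Col10a1 (1.61).

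Col10a1, a collagen of hypertrophic cartilage, had the same order of arrays as Myh6 in set 1. It was at 10.82 with diclofenac, 9.21 with the EP4 antagonist, 7.28 with GHMT and 6.88 with diclofenac plus PGE2, a 3.05-fold difference between the arms. In set 2 it was at 11.11 with the EP4 antagonist and 8.44 with GHMT. With that contrast in place of the one of set 1, its difference was 0.87 and not 1.61. It was the only 2-fold member of the 14 cartilage and bone genes, 10 of which were at background in both arms. Over all clusters 0.594% were 2-fold apart.

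Genes of the prostanoid pathway itself were not separated at 2-fold. Of 23 synthesis and breakdown genes 21 were matched, 12 had an arm above background and 0 were 2-fold apart, with a median of -0.02 over those 12. Over all clusters 0.594% were 2-fold apart, so a count of 0 is the usual outcome for a list of this size. Ptgs2, the inducible cyclooxygenase, was at 9.47 with diclofenac, 9.81 with the EP4 antagonist, 9.72 with GHMT and 10.03 with diclofenac plus PGE2. The arms thus differed by -0.34, and diclofenac was the lowest array of set 1. The cytosolic phospholipase Pla2g4a, which releases arachidonic acid, differed by -0.29. The PGE2 synthases Ptges (0.37), Ptges2 (-0.50) and Ptges3 (0.24) and the prostacyclin synthase Ptgis (-0.15) all lay within 2-fold. Pla2g6, another phospholipase, differed by 0.53, and the breakdown and export genes Ptgr1 (0.04), Ptgr2 (0.17) and Abcc4 (-0.17) differed less. Hpgd, which inactivates PGE2, was at background in both arms (5.99 and 5.53) and at 7.28 with diclofenac plus PGE2.

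Of 12 receptor genes 11 were matched and 2 were above background. Ptger4, the gene of EP4, was at 6.50 with diclofenac, 6.34 with the EP4 antagonist, 6.65 with GHMT and 7.60 with diclofenac plus PGE2. The arms differed by 0.16, and the array with added PGE2 was the highest. Ptgfrn, a membrane protein that binds the PGF receptor, differed by -0.51. The other PGE2 receptors Ptger1 (5.68 and 5.33), Ptger2 (3.69 and 4.22) and Ptger3 (5.69 and 5.66), the prostacyclin receptor Ptgir (3.76 and 4.07), the thromboxane receptor Tbxa2r (5.06 and 5.04), and Ptgdr, Ptgdr2, Ptgfr and Pparg were at background in both arms. Of the genes for prostanoid receptors proper, Ptger4 was thus the single one above background in these 2 arrays.

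Genes downstream of cAMP were close in the 2 arms. Of 24 cAMP and CREB target genes (median 0.15) 0 were 2-fold apart, against 0.594% of all clusters. Pde4b, a phosphodiesterase that degrades cAMP, was at 6.12 with diclofenac and 5.33 with the EP4 antagonist, against 8.56 with GHMT and 9.52 with diclofenac plus PGE2. Both arms were far below GHMT, and the antagonist array, at background, was the lower by at least 1.10-fold. In set 2 Pde4b was at 5.90 with the EP4 antagonist and 9.33 with GHMT. Hsd3b6 (4.79 and 4.45) and Mcpt8 (4.70 and 4.42), which were at 8.64 and 7.75 with diclofenac plus PGE2, were at background in both arms. Sod3, an extracellular superoxide dismutase, was at 7.90 with diclofenac, 7.28 with the EP4 antagonist, 7.69 with GHMT and 11.00 with diclofenac plus PGE2. The last array stood apart in Sod3, and the arms differed by 0.62.

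Of 19 matched members of the lipoxygenase pathway, the other route for arachidonic acid, 1 was 2-fold apart, against 0.594% of all clusters. The list's median was 0.07, so the difference belongs to that 1 gene and not to the pathway. Cyp4f16, a cytochrome P450 of a family that hydroxylates leukotrienes and fatty acids, was at 8.10 with diclofenac, 6.94 with the EP4 antagonist, 7.26 with GHMT and 7.66 with diclofenac plus PGE2, a 2.23-fold difference. In set 2 it was at 7.27 with the EP4 antagonist and 7.71 with GHMT, so the antagonist array was below GHMT in both sets (-0.32 and -0.44). Its pooled difference was 1.19 ± 0.26 (SE, limma adjusted p = 0.999). Another 16 members of the pathway were at background in both arms.

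Matrix and fibroblast genes that were lower than in GHMT were so in both arms. Tgfbi, a matrix protein induced by TGFb, was at 10.43 with diclofenac, 10.61 with the EP4 antagonist and 12.14 with GHMT. Fbln1, a fibulin, was at 11.81, 11.68 and 13.50 in that order, and Mmp3, a stromelysin, was at 8.96, 8.76 and 10.78. The arms differed by -0.18, 0.13 and 0.20 in these genes. Col1a1 (-0.14) and the interleukin-1 receptor Il1r1 (-0.13) were as close. Dpt, dermatopontin, was lower still with the EP4 antagonist, at 5.31 (background) against 6.22 with diclofenac and 8.06 with GHMT. In set 2 it was at 7.64 with the antagonist and 8.07 with GHMT, and with that contrast its difference was -1.41. Abi3bp (0.71), Postn (0.49) and Mmp11 (0.90) were also higher with diclofenac in set 1, and Postn was at -1.01 with the contrast of set 2. Of 36 collagen and matrix, 22 fibroblast identity and 21 metalloproteinase genes, 0 were 2-fold apart, with medians of 0.05, 0.08 and 0.14. Over all clusters 0.594% were 2-fold apart.

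Of the 35 lists, 33 had a median within 0.2 of 0, the exceptions being the interferon response (0.47) and the CGRP and adrenomedullin receptors (0.26, with 5 of 9 members at background in both arms). Only 6 lists had any member 2-fold apart, where 0.594% of all clusters were. Besides those named above these were the calcineurin and Gq list, through Edn1 (1.00, both arms at background), and the NRF2 list, through Gsta4, a glutathione transferase lower with diclofenac (6.31 against 7.47, with GHMT at 6.77). Outside the interferon response list, no list held more than 2 members that were 2-fold apart, which is no result about a list. Inflammatory cytokines and NF-kB targets had 0 of 38 members 2-fold apart and a median of -0.06, and Il1b was at background in both arms (5.08 and 4.93). TGFb response genes (0.08), p53 targets (-0.02) and cholesterol synthesis (0.04) were level as well. Flt1, a VEGF receptor (-0.51), and Cspg4, a pericyte proteoglycan (-0.52), were higher with the EP4 antagonist.

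**Figure D4:**
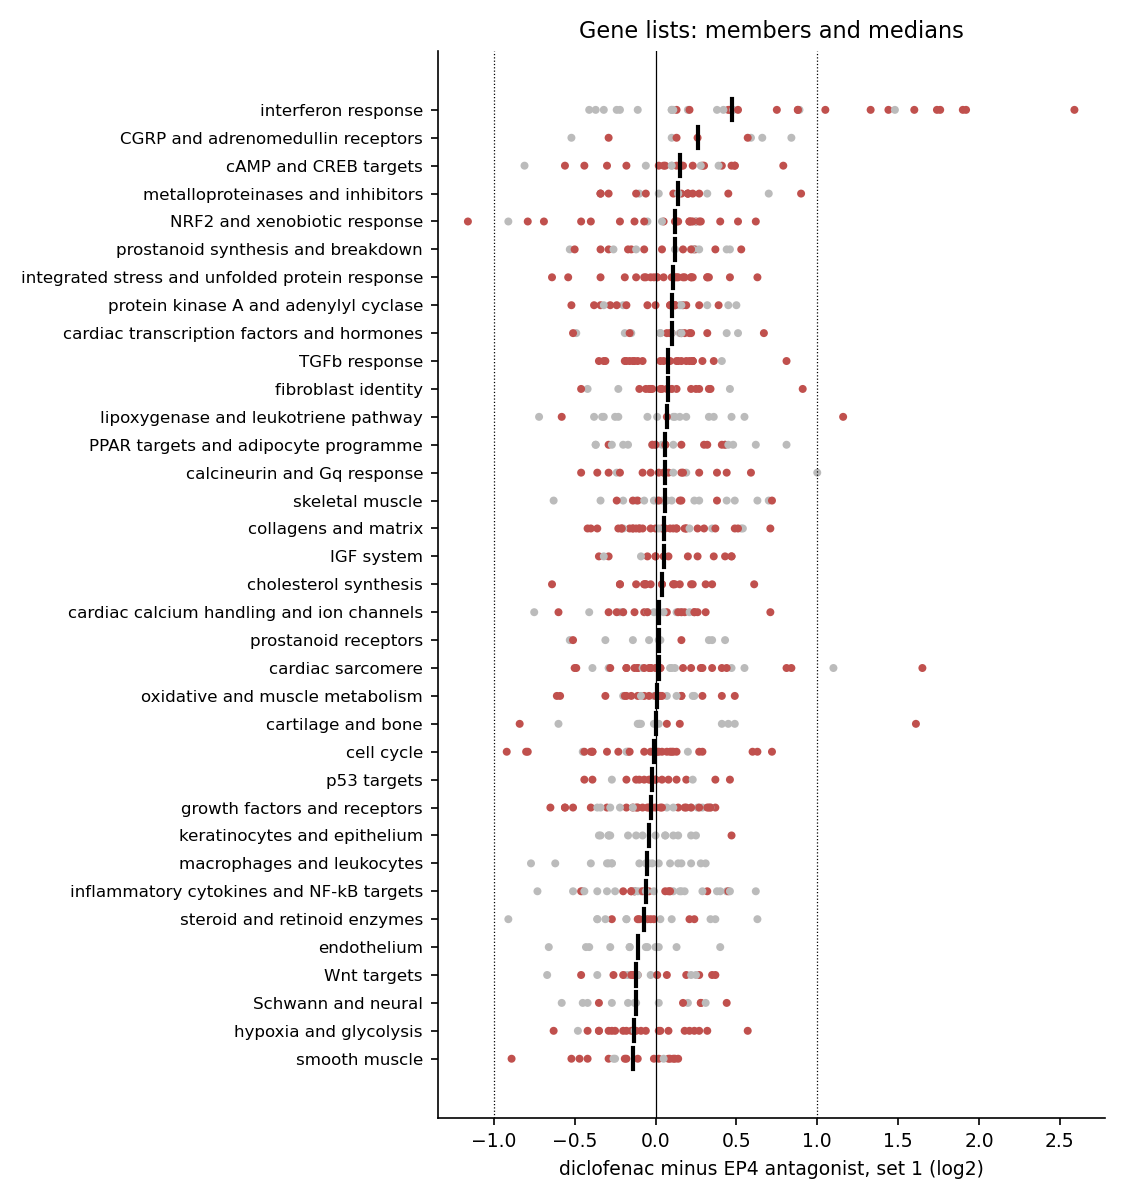
Diclofenac minus EP4 antagonist in set 1 (x axis, log2) for each matched member of the gene lists (y axis); red points have an arm above background, grey points have both arms at background, black ticks are list medians and dotted lines mark 2-fold. The interferon response list has the median farthest from 0 (0.47) and 10 of 32 members beyond 2-fold.

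Cell division genes were split. Of 32 cell cycle genes 0 were 2-fold apart, against 0.594% of all clusters, and the list's median was -0.01. The mitotic checkpoint kinase Bub1 was at 6.39 with diclofenac, 7.31 with the EP4 antagonist, 7.55 with GHMT and 7.32 with diclofenac plus PGE2, so diclofenac alone stood apart. Cenpe, a kinetochore motor (-0.80), and Birc5, survivin (-0.79), were lower with diclofenac too, while Ccne2, cyclin E2 (0.72), was higher. The kinetochore genes Cenpk (1.36), Cenph (1.17) and Ska2 (1.18), named after their values were seen, were higher with diclofenac; Cenpk was at background with the EP4 antagonist, at least 1.60-fold apart.

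Among the genes higher with diclofenac that are not interferon-inducible, 2 more transcription factors were named after their values were seen. Zic1, a zinc finger factor, was at 9.91 with diclofenac, 8.61 with the EP4 antagonist, 9.59 with GHMT and 9.26 with diclofenac plus PGE2. Fosl1, a subunit of AP-1, was at 9.81, 8.53, 9.33 and 9.50 in the same order. In both, the EP4 antagonist array was the low one of set 1, and in set 2 it was level with GHMT (9.09 and 9.16 for Zic1, 10.49 and 10.41 for Fosl1). The unnamed cluster TC0600001278.mm.2 stood out among those without a symbol (8.02 with diclofenac, 3.47 with the EP4 antagonist, 3.25 with GHMT and 5.17 with diclofenac plus PGE2; at least 4.11-fold).

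The genes lower with diclofenac formed no listed group. Spata1, a testis gene, was at 5.84 with diclofenac, 7.37 with the EP4 antagonist, 6.96 with GHMT and 7.00 with diclofenac plus PGE2, at least 2.60-fold apart. Zfp563, a zinc finger gene, was at 5.97, 7.17, 7.11 and 7.22 in the same order, at least 2.27-fold apart. In both, diclofenac was the single low array of set 1 and lay at background. Zxdb (-1.48), Gsta4 (-1.16), the receptor kinase Grk4 (-1.13) and Mcts1 (-1.06) were above background in both arms. The centriole gene Cenpj, the mitochondrial ribosomal gene Mrpl47, Stard6, the phosphatase Cdc14a, Zfp597 and the metalloprotease gene Adam4 were at background with diclofenac, with bounds from at least 1.15-fold (Adam4) to at least 1.64-fold (Cenpj). Mcts1 was at 8.59 with diclofenac and 9.65 with the EP4 antagonist, and its difference was 0.36 with the EP4 antagonist contrast of set 2 in place of that of set 1.

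Where GHMT alone lay was counted for the 72 clusters. It was between the arms in 47 of the 58 higher with diclofenac and in all 14 lower. In the 58 it was nearer to diclofenac in 30 and nearer to the EP4 antagonist in 28. By distance from GHMT, 22 clusters had the arms at least 0.5 away on opposite sides, 10 had the EP4 antagonist apart and 8 had diclofenac apart. Another 3 had both on the same side, and 29 were mixed. Of the 10 with the EP4 antagonist apart, 4 were named (Ifi204, Ifi211, Ifi27 and Oasl2). All 4 are interferon-inducible, as are 22 of the 44 named genes higher with diclofenac. Part of that group was marked after the values were seen, so their shared label is no separate finding. Myh6 and Col10a1 were the 2 clusters where both compounds lay above GHMT and diclofenac lay farther. Adding PGE2 to diclofenac left the array nearer to diclofenac alone than to the EP4 antagonist in 37 of the 58 and 5 of the 14. These counts share the GHMT array between both arms and follow in part from how the clusters were picked.

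**Figure D5:**
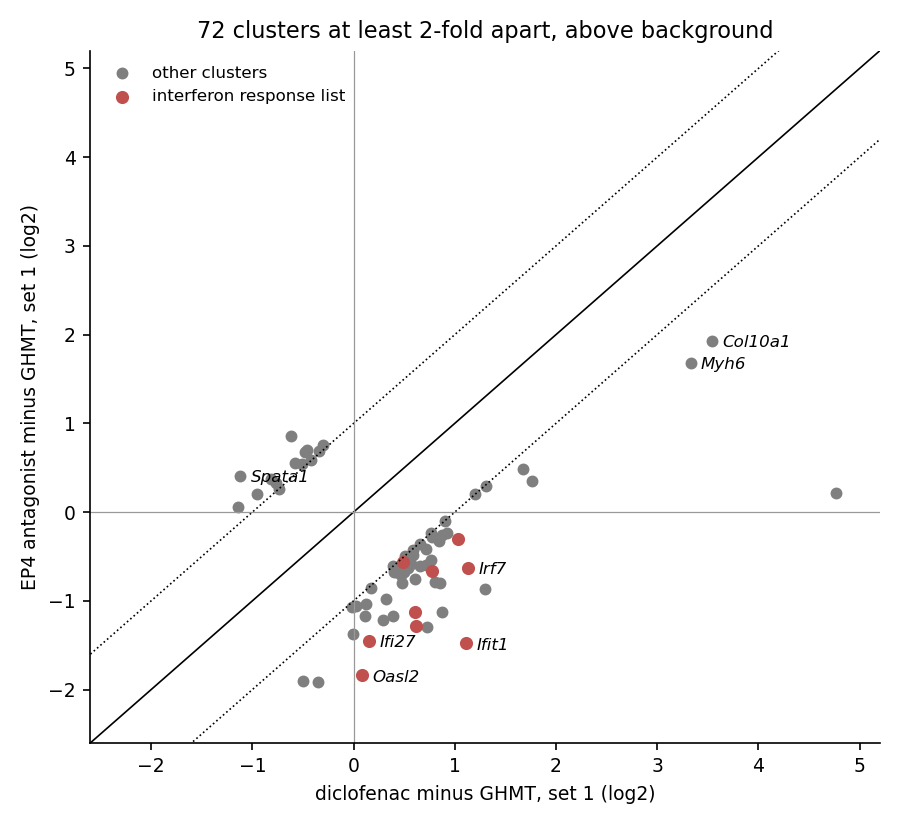
Diclofenac minus GHMT (x axis, log2) against EP4 antagonist minus GHMT (y axis, log2) in TTF set 1 for the 72 clusters at least 2-fold apart and above background; each point is 1 cluster, the solid line marks equal values and dotted lines a 2-fold difference, so the band between the dotted lines is empty by selection. The 9 interferon response genes (red) lie on the diclofenac side, with Oasl2 and Ifi27 near 0 on the x axis (0.08 and 0.15), and Myh6 and Col10a1 lie above 0 on both axes.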

How the data were processed

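RNA from 8 GHMT-transduced fibroblast cultures was measured on 1 array each. The authors deposited log2 values, which they had normalized with SST-RMA in Affymetrix Expression Console 1.4, per the labels and the submitters' processing notes. The genome build is not given in the sources used here, nor whether the sets were normalized together. Of 28846 rows, 6640 control probe sets were left out and 22206 transcript clusters kept. Symbols came from the platform annotation (2634 clusters are unnamed here; of 55 symbols on several clusters, the one with the highest mean was used). The background level was the 95th percentile of 23 background probe sets per array (5.73 to 5.99), and 43.7% to 45.7% of clusters exceeded it; the number of arrays limits the precision.

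The difference diclofenac minus EP4 antagonist was called at 1 or more in size (log2), without a test, after rounding to 2 decimals. limma 3.58.1 in R 4.3.3 fitted all 8 arrays, 1 coefficient per group with the TTF set as a block, two-sided, Benjamini-Hochberg over all clusters; the lone diclofenac array is assumed to vary like the groups with 2 arrays. On simulated data the fit recovered 0 of 50 seeded changes at a log2 difference of 1 and 10 of 50 at 2. It recovered 46 of 50 at 3 and 50 of 50 at 4, with 7 false calls. An empty result of this fit therefore says little about differences of about 1 or 2, the size of most of those described here. The unnamed cluster TC0600001278.mm.2 is the exception in size, with a measured difference of 4.55 and a pooled one of 5.42 ± 0.98 (SE). Tables and figures used Python 3.11.15, pandas 2.3.3, numpy 2.4.6 and matplotlib 3.10.9. Promoters came from RefSeq (GRCm38.p6).

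The comparison, the 35 lists (875 entries, 804 matched) and the rules were chosen with earlier results of these data known. The naming rule took the 12 highest and 12 lowest differences (1 symbol, higher arm above background, no predicted genes), both prostanoid lists, up to 4 members per other list with a difference of at least 0.5, and a fixed set of reprogramming genes. Chosen after the values were seen were 3 added interferon lists, the 13 further interferon-inducible genes, the ISRE search, and the genes the text says so of; members of a list are also named to describe its range. Alternatives were quantile normalization, median centring, the EP4 antagonist contrast of set 2, filters on background and symbols, and other limma settings.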

Additional observations from a re-analysis of the deposited data

How the results depend on the processing

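The count of 132 clusters was 176 after quantile normalization (107 higher, 69 lower), 132 after median centring and 106 among clusters with 1 symbol. It was 72 with the higher arm above background (58 higher, 14 lower) and, in a setting added after seeing the data, 51 with the lower arm raised to background (43 higher, 8 lower); both keep fewer clusters by construction. Without EP4 antagonist replicate 1 it was 1368 (711 higher, 657 lower), a value that combines 4 arrays from both sets. No paired analysis was possible because diclofenac and the EP4 antagonist share only replicate number 1. The limma fit called 0 clusters with the replicate block, 0 without that block (53 with an unadjusted p below 0.05), 0 after quantile normalization (791), 0 with a trended, robust prior (543) and 0 among clusters above background (257). Added after seeing the data, fits with the replicate block that left out diclofenac plus PGE2, the TGFb inhibitor or the Wnt inhibitor called 0 each, as they must, since a single array adds nothing to the spread. Leaving out a GHMT or EP4 antagonist array leaves no residual degrees of freedom with the block.

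List medians were counted as moved when they shifted by more than 0.1 and by more than the spread between sets. None of the 35 did after quantile normalization or median centring. Without EP4 antagonist replicate 1, 17 did, although that spread comes from the same arrays and is no independent measure: prostanoid synthesis and breakdown (-0.04), lipoxygenase and leukotriene pathway (-0.13), cardiac sarcomere (0.32), cardiac transcription factors and hormones (0.32), collagens and matrix (-0.31), fibroblast identity (-0.38), metalloproteinases (-0.45), integrated stress and unfolded protein response (-0.10), interferon response (0.21), PPAR targets (0.24), hypoxia and glycolysis (0.07), steroid and retinoid enzymes (0.18), growth factors (-0.25), CGRP and adrenomedullin receptors (-0.07), macrophages and leukocytes (-0.17), keratinocytes (0.21) and smooth muscle (-0.30). Over members with an arm above background, 6 moved: prostanoid synthesis (-0.02), prostanoid receptors (-0.18), interferon response (1.05), keratinocytes (0.47), Schwann and neural cells (0.28), and cartilage and bone (0.11). Of 116 named genes, 94 had an arm above background, and 21 of these changed sign without EP4 antagonist replicate 1. They include 2 at least 2-fold apart (Ifi27 to -0.53, Mcts1 to 0.36), and among the others Dpt, Csrp3, Postn and Adm. The cause was not tested.

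The main limits are 1 array per arm, dependence on the EP4 antagonist array of set 1, and genes at background, which cannot show a difference.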

Other observations

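Of the 16 unnamed clusters at least 2-fold apart and above background, 14 were higher with diclofenac. TC0900000008.mm.2 was at 8.95 with diclofenac, 6.95 with the EP4 antagonist, 8.08 with GHMT and 8.81 with diclofenac plus PGE2. It and 3 others carry nearby numbers within 1 identifier series and differed by 1.27 to 2.00. In set 1 all 4 were lower with the EP4 antagonist than with GHMT, and in set 2 all 4 were higher. Their genes are not named here.

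The TGFb and Wnt inhibitor arrays of set 2 held interferon genes far above both arms. Ifit1 was at 11.58 and 11.61 there, against 5.15 with GHMT of set 2, and Stat2 at 11.95 and 12.43, against 8.62.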
